A study of Mus musculus with 4 samples.

Results

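The matrix metalloproteinases and their tissue inhibitors were examined in mouse mammary tumours that carried a Cdc25a transgene in addition to a growth factor receptor transgene, neu. The set held 10 genes, namely the proteases Mmp2, Mmp3, Mmp7, Mmp9, Mmp11, Mmp13 and Mmp14 and the inhibitors Timp1, Timp2 and Timp3. They were found by their symbols in the gene names printed with the array's probes, leaving out control spots, which gave 12 probes for the 10 genes out of 34723 genes tested. Mmp14 and Mmp9 had 2 probes each and every other gene had 1.

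The tumours came from 4 female FVB/N mice aged 26 weeks and were all at the early stage T1. The Cdc25a;neu group was 2 mice with the genotype MMTV-cdc25a;MMTV-neu, and the neu group was 2 mice with MMTV-neu, whose label also names the FvBn background. Both groups thus carried MMTV-neu, in which the promoter of the mouse mammary tumour virus drives the neu oncogene in mammary epithelium, and the same promoter drives Cdc25a, a phosphatase of the cell cycle. Each Cdc25a;neu tumour was hybridised with 1 neu tumour on 2-colour oligonucleotide arrays, once with each dye orientation, so that 4 arrays measured 2 pairs of mice. Ratios are given on the log2 scale as Cdc25a;neu over neu, and the replicate is the mouse pair (n = 2).

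Matrix metalloproteinases are zinc enzymes that cut collagens, basement membrane proteins, growth factors and other extracellular proteins. Most are secreted as inactive precursors and are switched on by removal of a propeptide, and the TIMP proteins block the active enzymes by binding to the catalytic site. In mammary tumours many of them are made by fibroblasts and immune cells of the stroma, so a bulk tumour holds a mixture of sources. In such bulk samples, fewer cells of a type and less RNA per cell cannot be told apart.

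Between 78.5% and 92.2% of the spots in each channel of the 4 arrays were well above background. Of 9 luminal epithelial markers Krt18 had the highest log2 levels, at 14.30 and 14.50 in the Cdc25a;neu tumours of pairs 1 and 2. In the neu tumours it was at 14.52 and 14.61. Krt19 of the same list was at 6.29 and 7.11 in the Cdc25a;neu tumours, against 6.69 and 6.75. Levels of different probes are not comparable, so these values do not test the labelled tissue. The probe named Cdc25a had ratios of 0.09 in pair 1 and 0.01 in pair 2, a mean of 0.05 ± 0.06 (SD, n = 2 pairs; adjusted p from limma = 0.781). Whether that probe lies in the part of the gene carried by the transgene was not given in the sources used here. Erbb2, the mouse gene of the neu receptor, had ratios of 0.45 in pair 1 and 0.85 in pair 2 (limma adjusted p = 0.492).

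Metalloproteinase promoters are a textbook case of control by AP-1, the dimer of Fos and Jun proteins. RefSeq's sequences for build GRCm38.p6, covering 250 bases before to 50 bases after the annotated start, were at hand for 8 of the 10 genes, all except Mmp2 and Mmp9. Mmp7 had 2 windows, for 2 annotated starts, so that there were 9 windows. The word TGAGTCA, searched on both strands, stood in the windows of Mmp3 and Mmp13 and in 1 of the 2 of Mmp7, and in 5.2% of 32851 promoters. The same 3 windows held TATAAA, searched on both strands, which stood in 13.6% of promoters. The word GGGCGG, a GC box searched on both strands, stood in the windows of the other 5 genes, Mmp11, Mmp14, Timp1, Timp2 and Timp3, and in 35.7% of promoters. A match describes the letters of the window and no bound factor. The stretches from 110 bases before to 10 bases after the start are shown for the 3 windows with the AP-1 word, which is in capitals, and for Mmp14 and Timp2, whose ratios differed most between the mouse pairs and whose stretches hold no such word.
Mmp3, chr9:7445712-7445831, plus strand: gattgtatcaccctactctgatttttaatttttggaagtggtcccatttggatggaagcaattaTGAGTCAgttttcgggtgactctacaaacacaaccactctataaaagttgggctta
Mmp7, chr9:7691980-7692099, plus strand: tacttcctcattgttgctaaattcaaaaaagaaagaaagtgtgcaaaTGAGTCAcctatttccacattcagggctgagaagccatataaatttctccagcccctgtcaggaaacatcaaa
Mmp13, chr9:7272404-7272523, plus strand: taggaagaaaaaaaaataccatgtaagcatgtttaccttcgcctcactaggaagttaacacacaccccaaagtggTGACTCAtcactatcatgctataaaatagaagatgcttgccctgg
Mmp14, chr14:54431488-54431607, plus strand: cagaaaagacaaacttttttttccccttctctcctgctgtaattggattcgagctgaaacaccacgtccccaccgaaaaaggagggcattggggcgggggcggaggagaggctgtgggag
Timp2, chr11:118355402-118355521, minus strand: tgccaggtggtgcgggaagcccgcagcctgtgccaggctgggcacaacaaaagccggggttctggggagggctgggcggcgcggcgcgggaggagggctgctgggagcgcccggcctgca
The AP-1 word began 46 bases before the start in Mmp3, 63 in Mmp7 and 35 in Mmp13, where it lay on the reverse strand and so reads TGACTCA. The 3 genes with this word had mean ratios between -0.15 and 0.13. Of the 5 genes with the GC box, Mmp14, Timp2 and Timp3 had opposite signs in the pairs on all arrays, and Mmp11 and Timp1 did not. A link between these words and the ratios was not tested.

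None of the 10 metalloproteinase and TIMP genes passed the test across genes for a difference between Cdc25a;neu and neu tumours. Their limma adjusted p-values lay between 0.516 and 0.989. The same held for the whole array, where 0 of 34723 genes (0.0%) passed and no adjusted p was below 0.233. Mmp2 was the 1 gene of the 10 with an unadjusted p under 0.05, a share to be read beside 9.56% of all genes. Its mean ratio of -0.20 was larger in size than its SD of 0.07 over the 2 pairs. The adjusted p thus does not show whether a difference exceeded the spread between pairs. The gene ratios had a median of -0.09 in pair 1 and 0.24 in pair 2, while the median over all genes was 0.00 in either pair. The mean ratio of 8 of the 10 genes lay within 0.25 of zero, as did that of 30999 of the 34723 genes tested. With the scanner's own log ratio Mmp2, Mmp3 and Mmp13 left that range, at means of -0.31, -0.80 and 0.30. What stood out was disagreement between the mice: Mmp14, Timp2 and Timp3 were lower in the Cdc25a;neu tumour on both arrays of pair 1 and higher on both arrays of pair 2. Such a sign pattern was found in 7.47% of all genes.

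**Figure D1:**
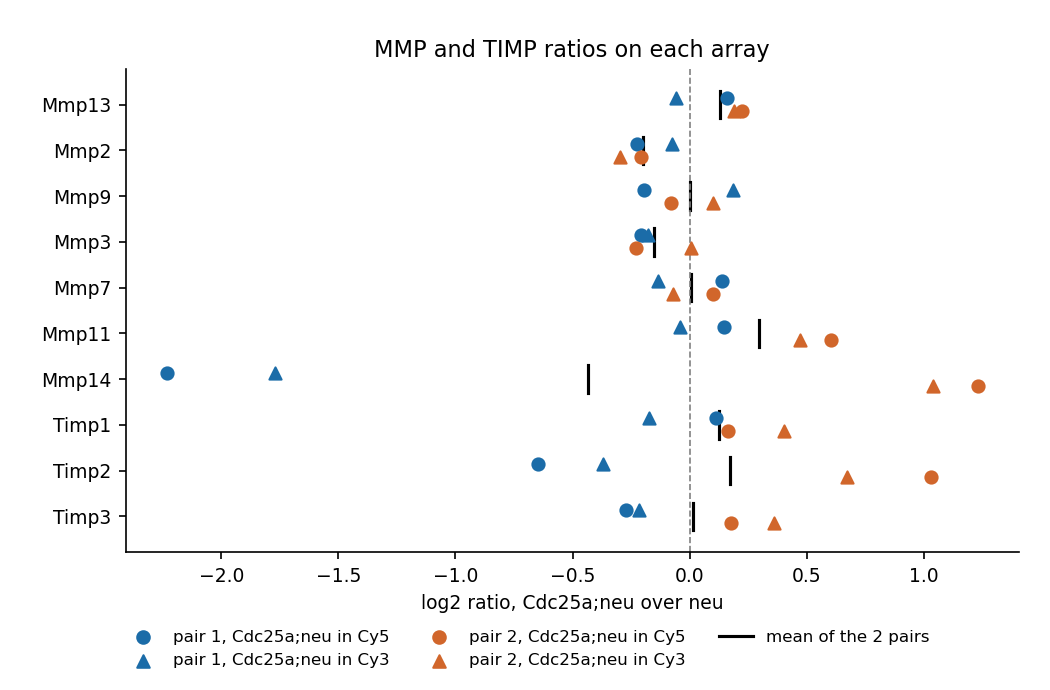
Log2 ratio of Cdc25a;neu over neu on each of the 4 arrays for the 10 genes, with circles and triangles for the dye orientation, colours for the mouse pair and a bar at the mean of the 2 pairs. Mmp14 spans from -2.23 to 1.23, Timp2 from -0.65 to 1.03, and Mmp2 is the gene with all 4 points below zero.

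Mmp14 encodes the membrane-anchored collagenase MT1-MMP, which acts at the surface of the cell. Its brighter probe, with the transcript identifier NM_008608, had ratios of -2.23 and -1.77 on the arrays of pair 1, with Cdc25a;neu in Cy5 and in Cy3, and of 1.23 and 1.04 on those of pair 2. The dye orientations thus agreed within each pair, and the pairs had opposite signs. The Cdc25a;neu tumour was 4.003-fold lower than its neu partner in pair 1 and 2.20-fold higher in pair 2.

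The levels in the single tumours, taken from the separate channels after normalization between arrays set the tumours apart. On the log2 scale the Mmp14 level was 8.01 in the Cdc25a;neu tumour of pair 1 and 10.31 in that of pair 2, against 10.01 and 9.17 in the neu tumours of pairs 1 and 2. The Cdc25a;neu tumours held both the lowest and the highest level, and the neu tumours lay between them. The 2 Cdc25a;neu tumours differed by 2.30 and the 2 neu tumours by 0.83 in size. The mean ratio was -0.43 ± 2.22 (SD, n = 2 pairs; adjusted p from limma = 0.902). The gap of 3.14 between the pair ratios was matched or exceeded in 11 of the 34723 genes, Mmp14 included.

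The spot signals behind these values were well above background in both channels of all arrays. In scanner units, before any correction, the Cdc25a;neu tumour of pair 1 gave 373.1 in Cy5 and 143 in Cy3, and that of pair 2 gave 2239 in Cy5 and 1463 in Cy3. The neu partners on the same arrays gave 767.3 in Cy3 and 1209 in Cy5 in pair 1, and 412.6 in Cy3 and 705.8 in Cy5 in pair 2. The ordering of the partners was therefore visible in either dye without normalization. The second Mmp14 probe, named for the cDNA clone E430018K19, did not share the pattern in size. Its ratios were -0.12 in pair 1 and 0.08 in pair 2, and its signals ran from 130.4 to 244 in Cdc25a;neu tumours and from 117.1 to 255.9 in neu tumours. Averaging the 2 probes gave -1.06 in pair 1 and 0.61 in pair 2, so the size of the Mmp14 difference rests on 1 of 2 probes. Which part of the transcript each probe reads was not given in the sources used here.

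**Figure D2:**
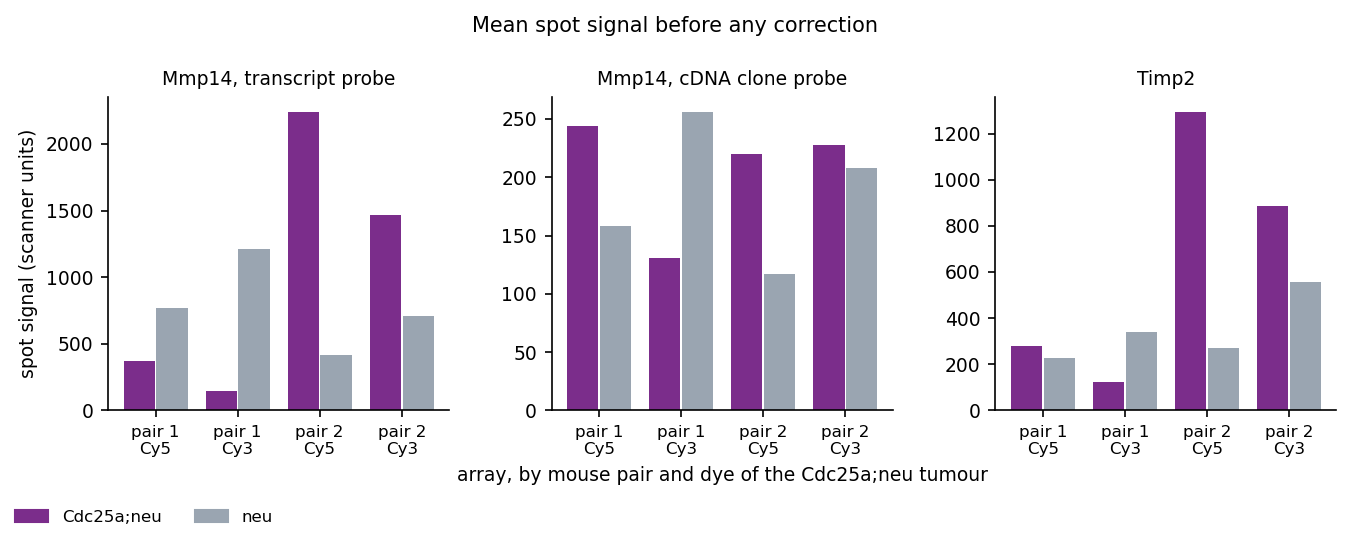
Mean spot signal in scanner units, before any correction, for both Mmp14 probes and the Timp2 probe on each array, with Cdc25a;neu bars left of neu bars and arrays named by mouse pair and by the dye of the Cdc25a;neu tumour. The Mmp14 transcript probe reads 373.1 and 143 in the Cdc25a;neu tumour of pair 1 and 2239 and 1463 in that of pair 2; the dyes differ in brightness, so bars within an array are not yet a ratio.

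Timp2 binds MT1-MMP at the cell surface, where the complex recruits the precursor of MMP2 for activation, and at higher amounts it inhibits the protease. Its probe, named for the cDNA clone C130030K05, had ratios of -0.65 and -0.37 on the arrays of pair 1 and of 1.03 and 0.67 on those of pair 2. The Cdc25a;neu tumour was 1.42-fold lower than its partner in pair 1 and 1.81-fold higher in pair 2. The direction was the same as for Mmp14 in either pair.

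The Timp2 level was 7.62 in the Cdc25a;neu tumour of pair 1 and 9.57 in that of pair 2, against 8.13 and 8.72 in the neu tumours of pairs 1 and 2. As with Mmp14, the Cdc25a;neu tumours were the lowest and the highest of the 4 and the neu tumours lay inside their range. For Timp2 this order follows from the opposite signs of the pair ratios, because the neu level was higher in pair 2. It is therefore no further observation. Averaged over the pairs the Timp2 ratio was 0.17 ± 0.96 (SD, n = 2 pairs; limma adjusted p = 0.911), a value well inside the spread. The pair ratios of Timp2 lay 1.36 apart, and those of Mmp14 and Timp2 were the 2 of the 10 genes at least 1 apart, against 1.36% of all genes.

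Timp3 is the inhibitor that stays bound to the extracellular matrix and also blocks several ADAM proteases. Its ratios were -0.27 and -0.22 on the arrays of pair 1 and 0.18 and 0.36 on those of pair 2. Its level was 7.10 and 7.65 in the Cdc25a;neu tumours of pairs 1 and 2, against 7.35 and 7.39 in the neu tumours. The neu tumours again lay within the range of the Cdc25a;neu tumours, at a smaller scale than for Timp2, and this again follows from the signs. Timp3 averaged 0.01 ± 0.36 over the pairs (SD, n = 2 pairs; adjusted p from limma = 0.985), far less than their spread.

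Timp1 is a soluble inhibitor that is induced in many inflamed and wounded tissues. Its ratios were 0.11 and -0.17 on the arrays of pair 1, where the sign followed the dye, and 0.16 and 0.40 on those of pair 2. Its level was 6.68 and 7.04 in the Cdc25a;neu tumours of pairs 1 and 2, against 6.71 and 6.75 in the neu tumours. The Cdc25a;neu tumour of pair 2 was thus the highest of the 4, and the groups overlapped. Over the pairs Timp1 averaged 0.13 ± 0.22 (SD, n = 2 pairs; limma adjusted p = 0.735). A pair of other probes matched Timp1 only through their sequence records, BC034260 and V00755, and stood outside the symbol rule; their mean ratios were 0.14 and 0.31, with pair ratios of 0.06 and 0.22 for BC034260 and of -0.02 and 0.63 for V00755. All 3 Timp1 probes were higher in the Cdc25a;neu tumour of pair 2 than in its partner.

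**Figure D3:**
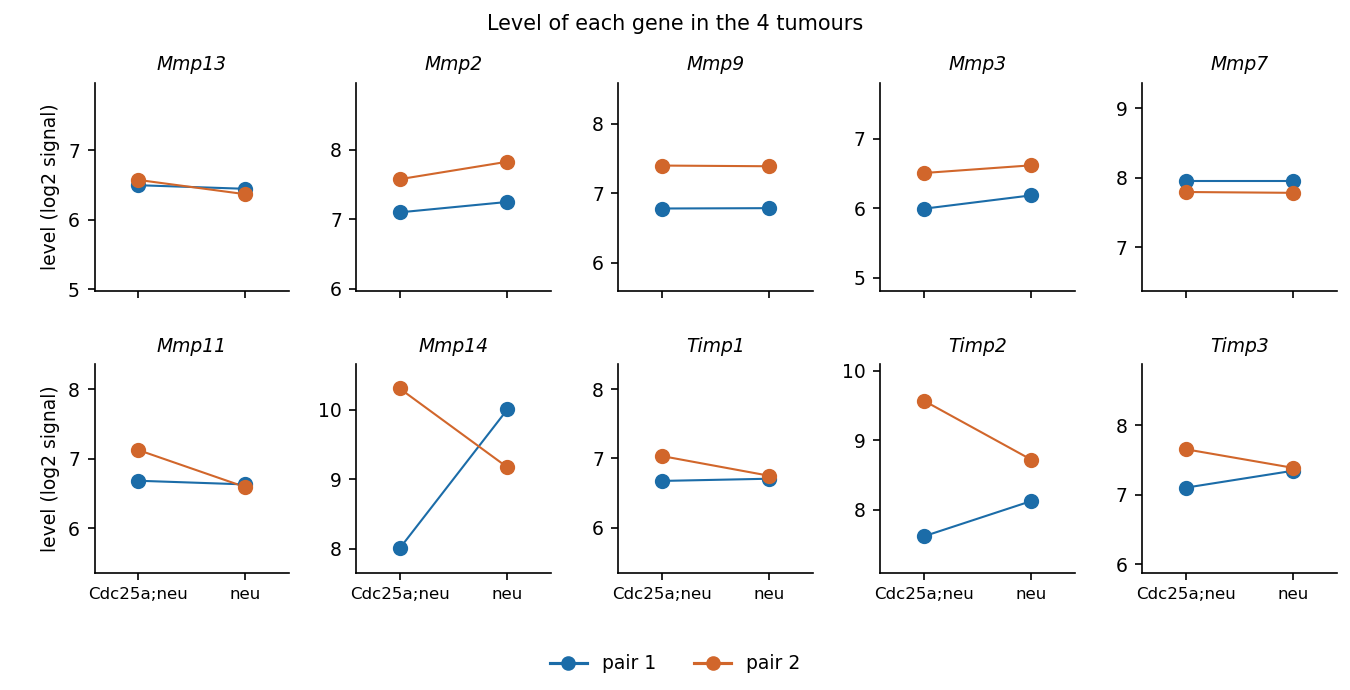
Level of each of the 10 genes (log2 signal from the separate channels) in the Cdc25a;neu tumours, left, and the neu tumours, right, with lines joining the tumours of a pair; each panel spans 3 log2 units around its own centre, since levels of different probes are not comparable. The lines of Mmp14 cross, with 8.01 and 10.31 in Cdc25a;neu against 10.01 and 9.17 in neu, while those of Mmp2 run parallel.

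Mmp2 encodes gelatinase A, which cuts denatured collagen and type IV collagen and is made largely by stromal cells. It was the 1 gene of the 10 that was lower in Cdc25a;neu on all 4 arrays, a pattern found in 12.6% of all genes. With median centring in place of loess Mmp2 lost this pattern, at 0.10 on 1 array of pair 2, and with no background subtraction, the scanner's processed signals or its log ratio Mmp3 had it too. The ratios of Mmp2 were -0.22 and -0.08 in pair 1 and -0.21 and -0.30 in pair 2. Its level was 7.10 and 7.58 in the Cdc25a;neu tumours of pairs 1 and 2, against 7.25 and 7.83 in the neu tumours. The tumours of pair 2 were higher than those of pair 1 in either genotype, so the groups overlapped although each Cdc25a;neu tumour was below its own partner. The mean ratio was -0.20 ± 0.07 (SD, n = 2 pairs), with an unadjusted p of 0.0396 and a limma adjusted p of 0.516.

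Mmp9 encodes gelatinase B, which neutrophils and macrophages release. Its brighter probe, named for the clone 1200008D17, had ratios of -0.20 and 0.19 in pair 1 and of -0.08 and 0.10 in pair 2, so the sign followed the dye orientation in either pair. Its level was 6.78 and 7.40 in the Cdc25a;neu tumours of pairs 1 and 2, against 6.78 and 7.39 in the neu tumours. The partners of a pair had nearly the same level, and the difference lay between the pairs. Over the pairs Mmp9 averaged 0.00 ± 0.01 (SD, n = 2 pairs; limma adjusted p = 0.989). The other Mmp9 probe, with the identifier NM_013599, had ratios of -0.06 in pair 1 and 0.09 in pair 2.

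Mmp13 is the main interstitial collagenase of rodents, where it cuts fibrillar collagen. Its ratios were 0.16 and -0.06 in pair 1 and 0.22 and 0.19 in pair 2. Its level was 6.50 and 6.58 in the Cdc25a;neu tumours of pairs 1 and 2, against 6.45 and 6.37 in the neu tumours. The groups did not overlap, but the nearest tumours differed by less than the 2 dye orientations of pair 1 did. Mmp13 averaged 0.13 ± 0.11 over the pairs (SD, n = 2 pairs; limma adjusted p = 0.613).

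Mmp3 encodes stromelysin 1, a broad protease that also activates other metalloproteinases. It was the dimmest of these probes against its background: the Cdc25a;neu channel was not well above background on either array of pair 1, and both channels were on the arrays of pair 2. Its ratios were -0.21 and -0.18 in pair 1 and -0.23 and 0.01 in pair 2. Its level was 6.00 and 6.51 in the Cdc25a;neu tumours of pairs 1 and 2, against 6.19 and 6.62 in the neu tumours. Each Cdc25a;neu tumour was below its partner, and the groups overlapped. Mmp3 averaged -0.15 ± 0.06 over the pairs (SD, n = 2 pairs; limma adjusted p = 0.534). The scanner's own log ratio, which adds no constant to dim signals, put the Mmp3 ratio at -1.31 in pair 1 and -0.29 in pair 2, so the size in pair 1 is not settled by these arrays.

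Mmp7 encodes matrilysin, a small protease made by epithelial cells. Its ratios were 0.14 and -0.14 in pair 1 and 0.10 and -0.07 in pair 2, which again followed the dye. Its level was 7.95 and 7.79 in the Cdc25a;neu tumours of pairs 1 and 2, against 7.95 and 7.78 in the neu tumours. The mean ratio was 0.01 ± 0.01 (SD, n = 2 pairs; adjusted p from limma = 0.973), and the partners could not be told apart. Mmp7 and Mmp9 had the closest agreement between pairs of the 10 genes, with pair ratios 0.01 and 0.02 apart, against a median gap of 0.09 over all genes. For both genes the dye orientations within each pair lay further apart than these gaps. The other Mmp9 probe had pair ratios 0.16 apart.

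Mmp11 encodes stromelysin 3, which is made by fibroblasts next to carcinoma cells and is activated inside the cell by furin. Its ratios were 0.15 and -0.04 in pair 1 and 0.60 and 0.47 in pair 2. Its level was 6.68 and 7.13 in the Cdc25a;neu tumours of pairs 1 and 2, against 6.63 and 6.59 in the neu tumours. The Cdc25a;neu tumour of pair 2 stood above the other 3, which lay close together. Mmp11 averaged 0.29 ± 0.34 over the pairs (SD, n = 2 pairs; limma adjusted p = 0.624). The pair 2 ratio of Mmp11 was 0.54 here and 1.07 with the scanner's own log ratio, while its pair 1 ratio was 0.05 and 0.10. None of the 10 genes was higher on all 4 arrays, against 14.4% of all genes.

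**Figure D4:**
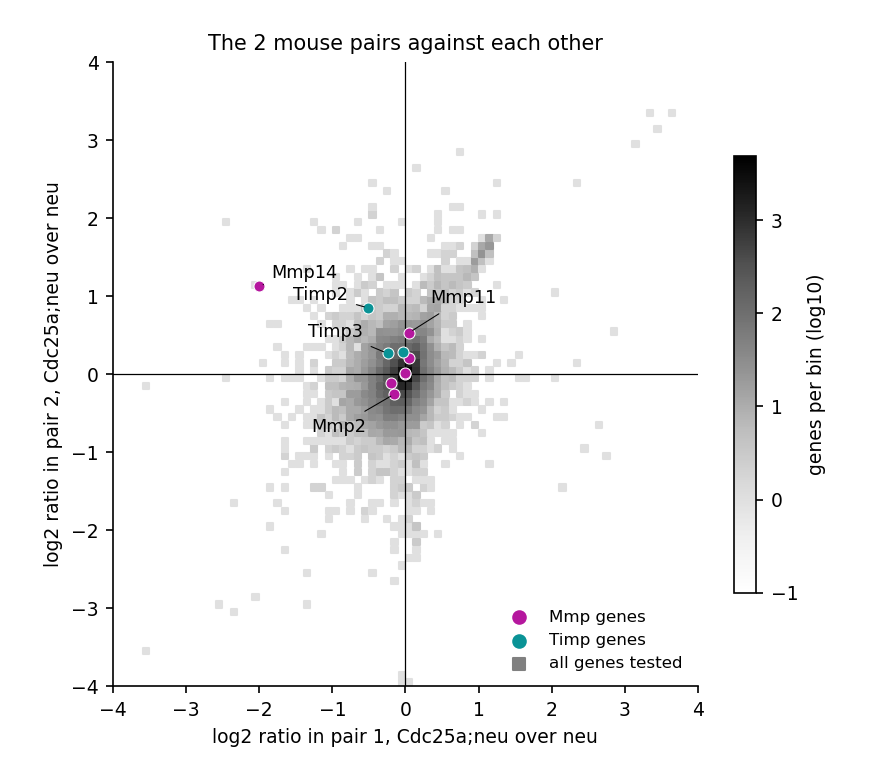
Log2 ratio of Cdc25a;neu over neu in pair 1 (horizontal) against pair 2 (vertical) for the 7 Mmp genes and 3 Timp genes, over the density of all 34723 genes tested (grey squares, log10 of the number of genes per bin of 0.1; ratios beyond the axes are drawn at their edge). Mmp14 lies at -2.001 and 1.14, far from the bulk, and most of the others lie near the origin.

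The remaining protease genes were lists of related genes, and no gene of any of these lists passed the test. Counts in these lists and in the marker lists below are to be read beside the shares of all genes. Those were 14.4% higher on all 4 arrays, 12.6% lower on all 4 and 7.47% with the sign pattern of Mmp14. Of 16 other MMP genes 13 were measured, with median ratios of 0.00 in pair 1 and 0.05 in pair 2. Among these, 2 were higher on all 4 arrays, 1 was lower and 1 had the sign pattern of Mmp14. The lower one was Mmp16, which encodes the membrane-type protease MT3-MMP, with ratios of -0.33 in pair 1 and -0.83 in pair 2 and a mean of -0.58 ± 0.35 (SD, n = 2 pairs; adjusted p from limma = 0.516). Mmp1a and Mmp21 were the 2 with higher ratios, at means of 0.09 and 0.06. In mice, Mmp3, Mmp7 and Mmp13 lie in a cluster of metalloproteinase genes on chromosome 9. The 8 measured genes of that cluster, Mmp13, Mmp12, Mmp3, Mmp1a, Mmp10, Mmp8, Mmp20 and Mmp7 in order, had mean ratios between -0.15 for Mmp3 and 0.13 for Mmp13. In these values no gene of the cluster approached the pair difference of Mmp14, which lies on chromosome 14. Ratios of dim probes are drawn towards zero by the constant added to signals. The scanner's own log ratio, which adds none, gave -1.31 and -0.29 for Mmp3 in pairs 1 and 2. For Mmp13 it gave 0.02 and 0.58, and for Mmp7 -0.03 and 0.01.

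All 4 other metalloproteinase inhibitors were measured. A2m, the broad protease trap alpha-2-macroglobulin, had ratios of 1.06, 0.84, 1.23 and 1.64 on the 4 arrays. Its level was 7.28 and 7.995 in the Cdc25a;neu tumours of pairs 1 and 2, against 6.33 and 6.56 in the neu tumours. The groups did not overlap, and the mean ratio was 1.19 ± 0.34 (SD, n = 2 pairs), with an unadjusted p of 0.00616 and a limma adjusted p of 0.445. Timp4 had ratios of -0.11 in pair 1 and -0.12 in pair 2, lower on all 4 arrays, with a mean of -0.12 ± 0.01 (SD, n = 2 pairs).

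Of 19 ADAM and ADAMTS proteases 16 were measured, and 4 of these had the sign pattern of Mmp14. Adam8, a membrane protease of myeloid cells, and Adamts2, which trims procollagen, had the widest gaps and are named after their values were seen. Adam8 had ratios of -0.45 in pair 1 and 2.46 in pair 2, and Adamts2 of -0.46 and 1.18. By the naming rule, Adamts12 and Adam23 were higher on all 4 arrays, with mean ratios of 0.10 and 0.06. The list medians were -0.01 in pair 1 and 0.03 in pair 2.

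The plasminogen system and the proprotein convertases switch on metalloproteinase precursors, and 12 of 13 such genes were measured. The list medians were -0.01 in either pair. Plat, a plasminogen activator, and Pcsk5, a convertase, were higher on all 4 arrays, with mean ratios of 0.11 and 0.10, and Serpinb2, an inhibitor of plasminogen activators, was lower at -0.03. The sign pattern of Mmp14 was found in 3 genes of this list.

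All 8 genes of the cathepsin list were measured, and their median was -0.35 in pair 1 and 0.05 in pair 2. Cst3, the cathepsin inhibitor cystatin C, was lower on all 4 arrays with a mean of -0.58 ± 0.05 (SD, n = 2 pairs; adjusted p from limma = 0.445), as was Ctsz at -0.14. Ctsh was higher on all 4, with a mean of 0.37 ± 0.15 (SD, n = 2 pairs; adjusted p from limma = 0.495). Ctsl was the 1 gene of this list with the sign pattern of Mmp14, at -0.81 in pair 1 and 0.68 in pair 2.

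The matrix proteins that these enzymes cut had list medians of -0.14 in pair 1 and 0.46 in pair 2, over 13 measured genes of 15. The proteoglycans Dcn and Lum were lower on all 4 arrays, with means of -0.83 ± 0.24 and -0.34 ± 0.11 (SD, n = 2 pairs). Col4a1, a chain of basement membrane collagen, was higher on all 4 arrays at 0.51 ± 0.62 (SD, n = 2 pairs), and the laminin chain Lamc1 at 0.19 ± 0.19. The sign pattern of Mmp14 was found in 4 genes. The chains of type I collagen, a substrate of MT1-MMP, were among these and are named after their values were seen: Col1a1 had ratios of -0.36 in pair 1 and 1.60 in pair 2, and Col1a2 of -0.14 and 1.32.

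Of 13 genes of transcription factors and cytokines known to induce metalloproteinases 12 were measured, and the median was -0.20 in pair 1 and 0.03 in pair 2. Jun, a subunit of AP-1, was lower on all 4 arrays, with ratios of -0.97 in pair 1 and -0.41 in pair 2 and a mean of -0.69 ± 0.40 (SD, n = 2 pairs; adjusted p from limma = 0.510). The ETS family factors Ets2 and Etv4 were also lower on all 4, at -0.42 and -0.27. The sign pattern of Mmp14 was found in 4 genes of this list. Fos, the partner of Jun in AP-1, was among these, was named after its values were seen and was at -0.72 in pair 1 and at 0.52 in pair 2. The genes whose promoters carry the AP-1 word shown above, Mmp3, Mmp7 and Mmp13, had mean ratios between -0.15 and 0.13. With the scanner's own log ratio these means were -0.80, -0.01 and 0.30 in turn. A link between Jun or Fos and these 3 genes was not tested.

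Some markers of macrophages and fibroblasts had the sign pattern of Mmp14 and Timp2, which 7.47% of all genes had, and others did not. Of 8 macrophage markers, all measured, 5 were lower on both arrays of pair 1 and higher on both of pair 2, and the median was -0.26 in pair 1 and 0.41 in pair 2. Their summed signal was 7664 and 35388 in the Cdc25a;neu tumours of pairs 1 and 2, against 10109 and 9969 in the neu tumours. Lyz2, lysozyme of myeloid cells, and Cd14 had the widest gaps, with ratios of -0.45 and 2.03 for Lyz2 and -0.58 and 1.06 for Cd14 in pairs 1 and 2, and are named after their values were seen. The sum was mostly Lyz2, which alone gave 5693 and 32474 in the Cdc25a;neu tumours of pairs 1 and 2, against 7799 and 7940 in the neu tumours. The other 7 markers summed to 1971 and 2914 in the Cdc25a;neu tumours, against 2311 and 2029 in the neu tumours, so the size of the difference in the whole sum rested on 1 gene. With or without Lyz2, the sum was lowest in the Cdc25a;neu tumour of pair 1 and highest in that of pair 2.

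Of 10 fibroblast markers, all measured, 5 had the sign pattern of Mmp14, and the median was -0.31 in pair 1 and 0.31 in pair 2. Their summed signal was 2311 and 9832 in the Cdc25a;neu tumours of pairs 1 and 2, against 2969 and 5506 in the neu tumours. Dcn, Lum and Pdgfra, a growth factor receptor of fibroblasts with a mean of -0.29 ± 0.28 (SD, n = 2 pairs), were lower on all 4 arrays. Without Col1a1, the brightest of the list, the other 9 summed to 1829 and 5603 in the Cdc25a;neu tumours, against 2351 and 4114 in the neu tumours. The list shares 5 measured genes with the matrix proteins above. No summed marker level was at 0 in any tumour, and the part of these cell types in the ratios of Mmp14, Timp2 and Timp3 was not tested.

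Adipocyte and muscle markers differed between the tumours as well. Of 8 adipocyte markers 7 were lower on all 4 arrays, against 12.6% of all genes. The summed signal of the 8 was 1938 and 2596 in the Cdc25a;neu tumours of pairs 1 and 2, against 6502 and 15346 in the neu tumours. The largest mean ratios were those of Cfd at -3.55, Fabp4 at -2.43 and Car3 at -2.19. The summed signal of 6 measured muscle markers was 1030 and 1193 in the Cdc25a;neu tumours, against 1108 and 4238 in the neu tumours, with the neu tumour of pair 2 alone high. Their part in the ratios of Mmp2 and Mmp3, which were lower in the Cdc25a;neu tumour of either pair, was not tested. The summed signal of 9 luminal epithelial markers was 44551 and 48058 in the Cdc25a;neu tumours, against 47726 and 52602 in the neu tumours.

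**Figure D5:**
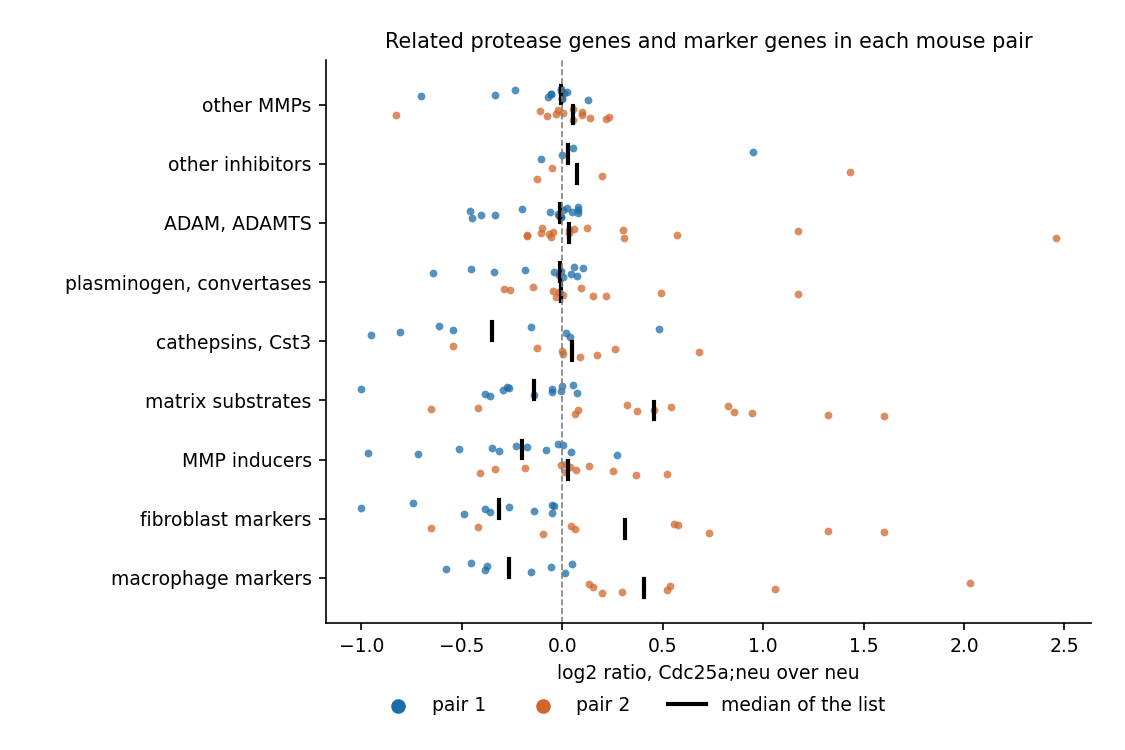
Log2 ratio of Cdc25a;neu over neu for every measured gene of 7 lists of related genes and of the fibroblast and macrophage markers, in pair 1 and pair 2, with a bar at the median of each list. The medians of the macrophage markers lie at -0.26 and 0.41 and those of the matrix substrates at -0.14 and 0.46, while those of the other MMP genes lie near zero in either pair.

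The opposite signs of Mmp14, Timp2 and Timp3 in the 2 pairs held in every alternative that gave these genes other array ratios, 6 for Mmp14 and 5 each for Timp2 and Timp3. Filters on dim probes left their values as they were and are not counted. Over these alternatives and the main values, the Mmp14 ratio ran from -2.35 to -1.06 in pair 1 and from 0.61 to 1.32 in pair 2. This range leaves out the second Mmp14 probe read on its own, which had the same signs at only -0.12 in pair 1 and 0.08 in pair 2. The Timp2 ratio ran from -0.69 to -0.51 in pair 1 and from 0.85 to 1.04 in pair 2. The Timp3 ratio ran from -0.48 to -0.23 in pair 1 and from 0.24 to 0.46 in pair 2. With 1 tumour of each genotype in a pair, the difference between the pairs has no replicate of its own and was not tested.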

How the data were processed

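RNA of 4 mammary tumours was measured on 4 arrays of 2 colours, 2 dye-swapped arrays for each of 2 mouse pairs. The authors deposited scanner output with spot and background intensity per channel and a log10 ratio; version 7.2 of Agilent Feature Extraction stands in the submitters' processing notes and 7.5.1 in the file headers. They also deposited a table of natural log ratios, red over green as its slopes of 2.27 to 2.29 on the scanner's log10 ratio show, with column medians between 0.0007 and 0.0209; its normalization and centring, the genome build and the probe positions are not given in the sources used.

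Intensities as deposited were corrected with normexp (offset 50) and loess within arrays in limma 3.58.1 (R 4.3.3). Control spots had weight 0, outlier spots were left out, and spots of a probe were averaged. The offset draws the ratios of dim probes towards zero. A probe was kept if well above background in a channel on at least 2 arrays (37177 of 41174 probes), and a gene was read from its brightest kept probe. The 2 arrays of a pair were turned to 1 direction and averaged, so the replicate was the pair. The mean log2 ratio against zero was tested two-sided with lmFit and eBayes, with Benjamini-Hochberg adjustment over 34723 genes at a threshold of 0.05. Tumour levels are log2 signals of the separate channels after Aquantile normalization, and the sums of markers add these on the linear scale. Only 4 arrays limit the precision. The fit was tested on simulated data with changes larger than most ratios here. Their spread between pairs was far below that of Mmp14 and Timp2, so the simulation does not show how the fit treats such genes. The members, lists and tests were chosen with earlier results of these data known. From each list, up to 3 genes of one sign on all 4 arrays with the largest mean ratios were named; other names are marked. Alternatives were other background corrections, centring, filters, probe averaging, separate channels, the scanner's ratio, the authors' table, and leaving out each array or pair.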

Additional observations from a re-analysis of the deposited data

Results flagged for a closer look

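Mmp14, Timp2 and Timp3 were each lower in the Cdc25a;neu tumour on both arrays of pair 1 and higher on both arrays of pair 2. The pair 2 ratio minus the pair 1 ratio was 3.14 for Mmp14, 1.36 for Timp2 and 0.51 for Timp3 on the log2 scale. As many as 0.0317%, 0.628% and 6.52% of all genes had a gap at least as large as Mmp14, Timp2 and Timp3 in turn. The Mmp14 gap is that of its brighter probe, and the second Mmp14 probe had pair ratios 0.20 apart. The difference between the pairs was not tested, since a pair holds 1 tumour of each genotype.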

How the results depend on the processing

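None of the 10 genes passed under any of 16 alternatives with a test, but 6 of the settings leave every mean ratio as it was. Of 112 recomputed mean ratios that differed from the reported value, 97 kept their direction. Across all genes, median centring in place of loess called 1054 genes, with a lowest adjusted p of 2.64e-55; limma's prior on the spread had 213 degrees of freedom in that fit, against 1.73 with loess, so genes were tested against a nearly common spread. Separate-channel fits with no replicate block and with the replicate block for the mouse pair called 0 genes, as did the fit on pair ratios. The fit with the block repeats the fit on pair ratios, with the same lowest limma adjusted p of 0.233, and is no separate check. The number of genes of the set lower on all arrays was 2 with no background subtraction, with the scanner's processed signals and with the scanner's log ratio, and 0 with median centring, against 1 (Mmp2, joined by Mmp3 where there were 2); leaving out an array or a pair gave 1 to 5, the highest without pair 2. The number higher on all arrays was 1 with median centring, against 0; leaving out an array or a pair gave 0 to 6, the highest without pair 1. With the scanner's processed signals the mean ratio turned to -0.0053 for Mmp7 and -0.0457 for Timp3, and with its log ratio to -0.0108 for Mmp7 and -0.0474 for Timp3. Leaving out an array or a pair moved Mmp14 between -2.001 and 1.14, Mmp11 between 0.05 and 0.54, Mmp13 between 0.05 and 0.21, Timp1 between -0.0317 and 0.2842, Timp2 between -0.51 and 0.85, Timp3 between -0.25 and 0.27, Mmp7 between -0.0616 and 0.0746, and Mmp9 between -0.093 and 0.0981. Over the settings that change the processing, Mmp3 ran from -0.81 to -0.14, Mmp2 from -0.34 to -0.17, Mmp11 from 0.27 to 0.59 and Mmp13 from 0.07 to 0.31. Dim signal limits Mmp3, whose Cdc25a;neu channel was well above background on 2 of 4 arrays. The number of pairs, 2, limits every ratio.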

Other observations

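Endothelial, neutrophil and myoepithelial markers were not among the genes set beside Mmp14. Of 9 endothelial markers, all measured, 3 were higher in Cdc25a;neu on all 4 arrays, namely the receptors Kdr and Robo4 and the adhesion molecule Pecam1, with mean ratios of 0.26, 0.15 and 0.12. The sign pattern of Mmp14 was found in 2 of the 9. The endothelial summed signal was 1909 and 3501 in the Cdc25a;neu tumours of pairs 1 and 2, against 1883 and 2967 in the neu tumours, so it followed the pair more than the genotype. Of 5 measured neutrophil markers, S100a9 was higher on all 4 arrays at 0.33 ± 0.28 and Ngp lower at -0.34 ± 0.43 (SD, n = 2 pairs); the summed signal was 536 and 615 in Cdc25a;neu tumours, against 576 and 527 in neu tumours. Of 7 myoepithelial markers 3 had the sign pattern of Mmp14, and Myh11 was higher on all 4 arrays at 0.06. No gene of these lists passed the test (limma). Medians of the 4 T cell and 5 bone markers measured lay between -0.01 and 0.12 over the pairs, and the bone gene Sp7 was higher on all 4 arrays at 0.13.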
